A study of Mus musculus with 6 samples.

Results

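A set of 8 CC chemokine ligands and 1 CC receptor, *Ccl3*, *Ccl4*, *Ccl5*, *Ccl6*, *Ccl9*, *Ccl22*, *Ccl24*, *Ccl25* and *Ccr1*, were followed in mouse livers with and without the mitochondrial deacylase gene *Sirt5*. They were taken by gene name from a table of 55536 genes, all 9 were found, and all 9 were high enough to be tested. RNA was sequenced from whole livers of male C57BL/6 mice, 3 of genotype Sirt5+/+ and 3 of genotype Sirt5-/-. Every liver, control livers included, carried a YAP5SA transgene: at 4 weeks of age the mice received 50 µg of the plasmid PB[CMV-myc-YAP5SA]DS, which puts a myc-tagged active form of the growth regulator YAP under the CMV promoter, with 10 µg of the plasmid Act-PBase. Hydrodynamic injection, the route used, reaches only a portion of the hepatocytes, and livers were collected 20 days later. Livers without YAP5SA are not analysed here, so both genotypes are livers exposed to the oncogene. The title of the series frames the comparison as one of tumour formation and of the immune environment that bile acids shape.

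CC chemokines are small secreted proteins that guide leukocytes by binding G protein-coupled receptors, and each receptor usually answers to several ligands. CCL3, CCL4 and CCL5 attract monocytes, T cells and NK cells, CCL3 and CCL5 in part through CCR1. CCL6 and CCL9 are rodent ligands of CCR1 made largely by macrophages and other myeloid cells. CCL22 acts on CCR4, found on regulatory and type 2 helper T cells, CCL24 attracts eosinophils through CCR3, and CCL25 attracts gut-homing lymphocytes through CCR9. In liver the main sources of these ligands are resident and recruited macrophages, dendritic cells, T and NK cells, endothelium and, after injury, stellate and epithelial cells.

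Library totals ran from 19307808 to 24330797 estimated read counts. Mitochondrially encoded genes took 6.58 to 46.4% of counts, with the highest share in Sirt5+/+ replicate 3, followed by Sirt5-/- replicate 1 at 40.8%. *Sirt5* itself had 352, 441 and 96 counts in the control livers and 14, 45 and 18 in the knockout livers (replicates 1 to 3 in this order here and below), a log2 change of -4.13 ± 0.38 (SE; adjusted p = 0.00146, edgeR), so each library matched its label. Hepatocyte markers were present in all libraries. Levels are given below as CPM, read counts scaled to library size with TMM factors, and 3 counts in a library, taken as the floor of detection, equal 0.0827 to 0.393 CPM. The smallest TMM factor was that of Sirt5+/+ replicate 3, so its CPM are raised most relative to its counts. Nothing in the labels says that the livers of a group came from separate animals, so each p-value speaks for the spread among these 6 samples. In whole tissue, more cells of a type and more RNA per cell cannot be told apart.

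The CCR1 ligands *Ccl5* and *Ccl6* and the receptor *Ccr1* rose in Sirt5-/- livers, with mean levels of 14.8 against 2.19 CPM, 40.4 against 10.2 CPM and 13.9 against 2.66 CPM. *Ccl4*, *Ccl3* and *Ccl22* were higher in every Sirt5-/- library than in any Sirt5+/+ library but did not pass the test. *Ccl9*, *Ccl25* and *Ccl24* overlapped between genotypes. Of the 9 genes, 3 were called higher (edgeR quasi-likelihood test, adjusted p under 0.05 over 14799 genes) and none lower, where 17.4% of all genes tested were called higher and 17.1% lower. At an unadjusted p under 0.05 the counts were 4 and 0, but the share of all genes at that threshold is not given here, so these counts have no background. DESeq2 called 4 and 0, with 2943 of all 14799 genes called higher and 2884 lower. The genotypes did not overlap in 6 of the 9, all 6 of them higher, against 25.8% of all tested genes higher and 24.0% lower. The median log2 fold change of the 9 was 1.47, and that of all genes tested was -0.08.

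**Figure D1:**
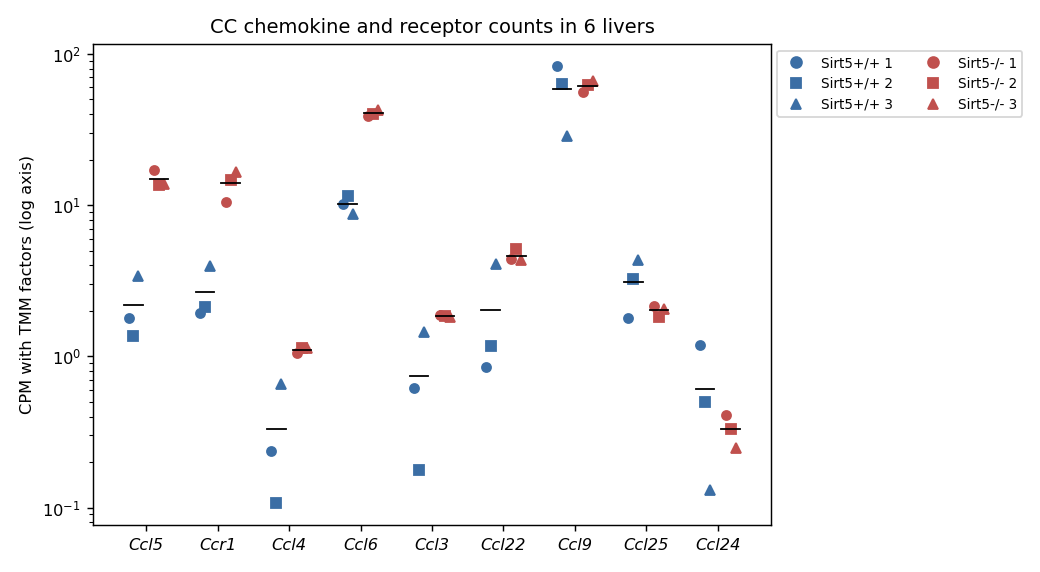
CPM with TMM factors (log axis) for the 9 genes in each liver, blue for Sirt5+/+ and red for Sirt5-/-, with the replicate shown by the marker and the mean of 3 libraries by a bar; genes are ordered by fold change. The genotypes are separate for *Ccl5*, *Ccr1*, *Ccl4*, *Ccl6*, *Ccl3* and *Ccl22*, and the triangle of Sirt5+/+ replicate 3 lies closest to the Sirt5-/- livers in *Ccl5*, *Ccr1*, *Ccl4*, *Ccl3* and *Ccl22*. That place rests in part on the TMM scaling of this library, which in counts was the lowest control for *Ccl5* and *Ccr1*.

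*Ccl5* (chromosome 11, 83525778 to 83530518, minus strand, GRCm38), the ligand also called RANTES and made in quantity by activated T and NK cells, changed most. It stood at 1.80, 1.36 and 3.41 CPM in the Sirt5+/+ livers and at 17.1, 13.5 and 13.8 CPM in the Sirt5-/- livers. The lowest Sirt5-/- liver was thus well above the highest Sirt5+/+ liver. The log2 change was 2.83 ± 0.37 (SE; edgeR adjusted p = 0.00198), from 38, 38 and 26 counts to 293, 491 and 498.

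*Ccr1* (chromosome 9, 123962124 to 123968692, minus strand), the receptor shared by CCL3, CCL5, CCL6 and CCL9, moved the same way. Its levels were 1.95, 2.11 and 3.93 CPM in the Sirt5+/+ livers and 10.5, 14.6 and 16.7 CPM in the Sirt5-/- livers. In counts they were 41, 59 and 30 against 180, 531 and 604. The groups were separate, with Sirt5+/+ replicate 3 again the highest control in CPM and Sirt5-/- replicate 1 the lowest knockout. Sirt5+/+ replicate 3 had the fewest counts of the controls, so its place among them rests on the TMM scaling. *Ccr1* rose by 2.44 ± 0.35 (log2, SE; adjusted p = 0.00244, edgeR).

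*Ccl3* and *Ccl4*, neighbours on chromosome 11 (83647844 to 83649355, minus strand, and 83662584 to 83664683, plus strand), encode the macrophage inflammatory proteins 1 alpha and 1 beta. *Ccl4* had 5, 3 and 5 counts in the Sirt5+/+ livers and 18, 41 and 41 in the Sirt5-/- livers, or 0.237, 0.107 and 0.655 CPM against 1.05, 1.13 and 1.13 CPM. The control values lie at or just above the floor, and the knockout values are close to one another. Its log2 change of 1.98 ± 0.69 (SE) just missed the threshold (adjusted p = 0.0544, edgeR). *Ccl3* had 13, 5 and 11 counts against 32, 67 and 66, or 0.617, 0.178 and 1.44 CPM against 1.87, 1.85 and 1.82 CPM. Here too the groups did not overlap, but the control livers differed widely among themselves in CPM, replicate 2 being the lowest and replicate 3 the highest. The log2 change was 1.47 ± 0.68 (SE; adjusted p = 0.130, edgeR).

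The calls of *Ccl3*, *Ccl4* and *Ccl22* depended on Sirt5+/+ replicate 3, on the scaling and on the tool. Without that library, *Ccl3*, *Ccl4* and *Ccl22* passed the threshold (log2 changes 2.30, 2.75 and 2.22, adjusted p = 0.0109, 0.00656 and 0.000928, edgeR), and 6 of the 9 genes were called. Calls rose among all genes too, with 3991 of 15608 called higher, against 2575 of 14799 in the reported fit. Also 6 were called when Sirt5+/+ replicate 3 and Sirt5-/- replicate 1, with the most mitochondrial reads, were both left out, where 3904 of 15527 genes were called higher. With all 6 libraries the 3 genes also passed with library totals (adjusted p = 0.0357, 0.0202 and 0.0267, edgeR) and with limma-voom (adjusted p = 0.0304, 0.0235 and 0.0140). *Ccl4* passed as well with upper-quartile factors (adjusted p = 0.0454, edgeR), with DESeq2 (adjusted p = 0.0314) and in the authors' deposited table (adjusted p = 0.0230). Over the alternatives run the adjusted p ranged from 0.0109 to 0.275 for *Ccl3*, from 0.00656 to 0.174 for *Ccl4* and from 0.000928 to 0.295 for *Ccl22*. *Ccl5*, *Ccl6* and *Ccr1* passed in all 19 alternative settings that were run, with log2 changes from 2.54 to 3.60, 1.86 to 2.58 and 2.28 to 3.29.

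**Figure D2:**
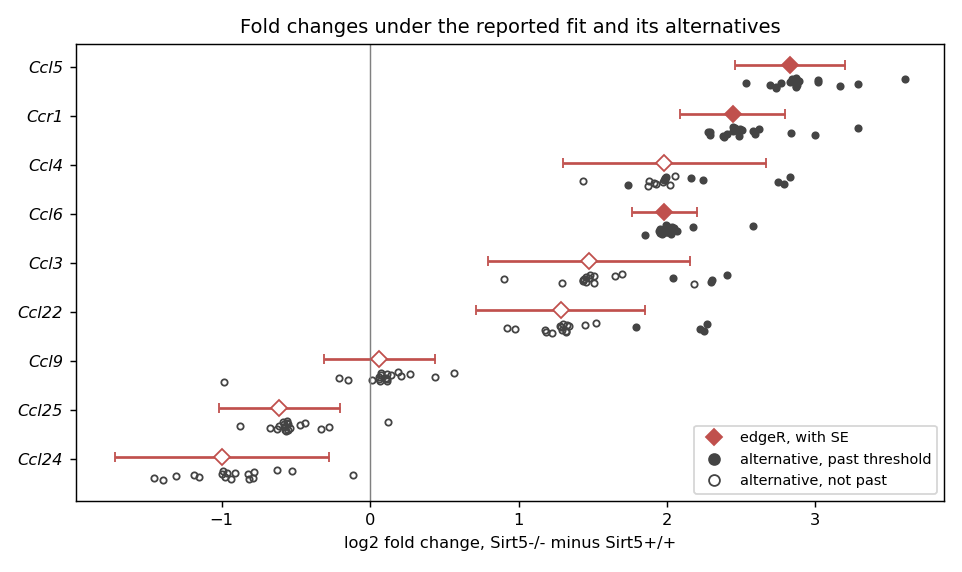
Log2 fold change of each gene, Sirt5-/- minus Sirt5+/+, in the reported edgeR fit (red diamond with its SE, filled where the adjusted p is under 0.05) and in up to 19 alternatives (grey circles, filled where past the threshold, spread vertically only for legibility). All circles of *Ccl5*, *Ccl6* and *Ccr1* are filled, those of *Ccl9*, *Ccl25* and *Ccl24* are all open, and *Ccl4*, *Ccl3* and *Ccl22* hold both kinds.

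*Ccl6* and *Ccl9* are adjacent genes on the minus strand of chromosome 11 (83587882 to 83593087 and 83572919 to 83578636) that encode related ligands of CCR1. The first rose and the second did not pass the test. *Ccl6* was at 10.2, 11.5 and 8.78 CPM in the Sirt5+/+ livers and at 38.8, 39.8 and 42.4 CPM in the Sirt5-/- livers. Its control livers differed from one another less, relative to their mean, than those of any other of the 9 genes, and it rose by 1.98 ± 0.22 (log2, SE; adjusted p = 0.00162, edgeR). The annotated span of the gene overlaps that of the noncoding gene E230016K23Rik on the opposite strand, and their exons were not compared. Whether reads were counted by strand is not given in the sources used here, so reads of the 2 may be mixed. *Ccl9* was at 83.4, 63.6 and 28.4 CPM in the Sirt5+/+ livers and at 55.8, 62.0 and 65.8 CPM in the Sirt5-/- livers. All 3 knockout values lay inside the range of the controls, and the log2 change was 0.06 ± 0.37 (SE; adjusted p = 0.913, edgeR).

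Within a library the ratio of the 2 genes needs no scaling between livers. *Ccl6* counts over *Ccl9* counts were 0.122, 0.181 and 0.309 in the Sirt5+/+ livers and 0.696, 0.643 and 0.645 in the Sirt5-/- livers. The ratio was thus higher in every knockout, by 1.80 on the log2 scale (exact two-sided permutation test, p = 0.1, the smallest that 3 against 3 allows), and the spread of its log2 was 0.67 (SD) in controls and 0.06 in knockouts. This ratio and that of *Ccl5* to *Ccl9* (0.0216, 0.0213 and 0.120 against 0.306, 0.218 and 0.209) were among 4 chosen after the values were seen. *Ccl5* over *Ccl6* overlapped (0.118 to 0.388 against 0.324 to 0.440), as did *Ccl4* over *Ccl3* (0.385 to 0.6 against 0.563 to 0.621). Only 1.02% of the 31-base words of *Ccl6* transcripts and 3.75% of those of *Ccl9* occur in transcripts of other genes of GENCODE M21, and none is shared between them. Transcripts were compared in their own direction only, and the opposite strand was not searched.

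The sequences just before the starts of *Ccl6*, *Ccl9* and *Ccr1* are shown because the first and the last gene rose and the neighbour *Ccl9* did not pass the test. Each run is the 150 bases before the RefSeq start (GRCm38.p6), read 5′ to 3′ on the gene's strand, and capitals mark a match to the kappaB consensus bound by NF-kB. The *Ccl6* run is chr11:83593088-83593237, the *Ccl9* run chr11:83578637-83578786 and the *Ccr1* run chr9:123968693-123968842, all on the minus strand.
Ccl6: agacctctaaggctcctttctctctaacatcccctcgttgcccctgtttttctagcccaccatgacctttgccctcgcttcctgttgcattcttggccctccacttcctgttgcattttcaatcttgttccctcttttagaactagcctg
Ccl9: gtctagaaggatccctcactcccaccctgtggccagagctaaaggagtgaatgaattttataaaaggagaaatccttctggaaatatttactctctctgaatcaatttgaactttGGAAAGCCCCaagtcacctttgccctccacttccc
Ccr1: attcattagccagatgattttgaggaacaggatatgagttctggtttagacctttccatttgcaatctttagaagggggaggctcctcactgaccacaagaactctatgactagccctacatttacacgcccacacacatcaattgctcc

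Of the 6 members with a RefSeq promoter, *Ccl3*, *Ccl6*, *Ccl9*, *Ccl22*, *Ccl25* and *Ccr1*, the 250 bases before the start matched the kappaB consensus, on either strand, in *Ccl9* alone, at bases 35 to 26 before the start on the opposite strand. The AP-1 motif TGANTCA was likewise found in *Ccl9* alone, at bases 53 to 47, without overlap with the first. Among 32851 promoter stretches of the same length, 3.90% held the kappaB consensus and 6.75% held TGANTCA. The C/EBP motif TTGCNNAA (9.56% of all stretches) and the PU.1 motif GAGGAAG (10.6%) were in none of the 6. The TATA motif TATAAA, found in 12.4% of all stretches, was in *Ccl9* and in 1 of the 2 starts of *Ccl25*. These are matches of letters in a short window.

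The deposited TPM, which divide by a length assigned to each gene, put *Ccl9* in a different light from its counts. *Ccl9* was at 76.7, 67.9 and 2.76 TPM in the Sirt5+/+ livers and at 13.4, 32.6 and 40.5 TPM in the Sirt5-/- livers. Dividing counts by TPM gives the average length that the quantification divided by. Its scale was set on genes with a single transcript of at least 2000 bases, whose median ratio to the annotated length was put at 1. Short genes can fall below their annotated transcripts on this scale, as *Ccl4* did, at 457 to 510 bases with 1 transcript of 660. The values thus compare livers within a gene and are not transcript lengths as such. For *Ccl9* the implied length was 1155 and 1238 bases in Sirt5+/+ replicates 1 and 2. It was 3049 in Sirt5+/+ replicate 3 and 2843, 2498 and 2450 in Sirt5-/- replicates 1 to 3. GENCODE M21 lists 2 *Ccl9* transcripts, of 3006 and 398 bases. The lengths therefore set 2 control livers apart from the other 4 libraries, and Sirt5+/+ replicate 3 falls with the knockouts. The same 2 livers had the lowest mitochondrial shares, 7.2 and 6.58%, against 17.5 to 46.4% in the other 4, and a link was not tested.

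**Figure D3:**
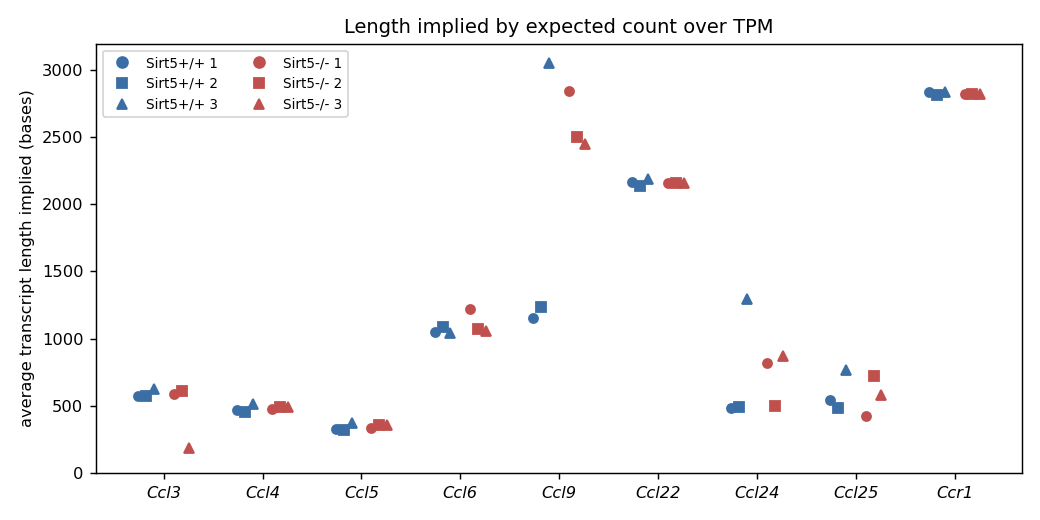
Average length in bases implied by expected count over TPM for each gene and liver, blue for Sirt5+/+ and red for Sirt5-/-, with the replicate shown by the marker. Short genes can read below their annotated transcripts on this scale. *Ccr1*, *Ccl22*, *Ccl6*, *Ccl4* and *Ccl5* have nearly the same length in all 6 livers, while *Ccl9* splits into 1155 and 1238 bases in 2 Sirt5+/+ livers and 2450 to 3049 bases in the other 4 libraries, and *Ccl3* falls to 185 bases in Sirt5-/- replicate 3.

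With this length as an offset in the edgeR fit, a setting chosen after the lengths were seen, *Ccl9* had a log2 change of -0.99 (adjusted p = 0.287), so its direction turned and it did not pass the test. The lengths of *Ccl6* (1044 to 1219 bases), *Ccl5* (316 to 371), *Ccl4* (457 to 510), *Ccl22* (2134 to 2186) and *Ccr1* (2813 to 2838) varied little. *Ccl3*, with 1 annotated transcript of 766 bases, had 575 to 627 bases in 5 libraries and 185 in Sirt5-/- replicate 3, where 66 counts gave 14.9 TPM against 4 TPM from 67 counts in replicate 2. *Ccl25* (423 to 766) and *Ccl24* (485 to 1293) varied as well, the latter from few reads. TPM of these 4 genes therefore carry differences in assigned length between livers.

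*Ccl22* (chromosome 8, 94745590 to 94751699, plus strand) encodes a ligand made by dendritic cells and macrophages that draws CCR4-bearing T cells. It was at 0.854, 1.18 and 4.06 CPM in the Sirt5+/+ livers and at 4.37, 5.13 and 4.31 CPM in the Sirt5-/- livers. Sirt5+/+ replicate 3 was just below the lowest knockout, and the other controls were well below it. The log2 change was 1.28 ± 0.57 (SE; adjusted p = 0.116, edgeR). *Ccl17*, the other CCR4 ligand, was at 3.01 ± 3.75 against 12.0 ± 3.56 CPM (SD, n = 3) and did not pass either (adjusted p = 0.0732, edgeR). *Ccr4* was too low to test, with 2, 0 and 4 counts against 0, 7 and 8.

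*Ccl24* (chromosome 5, 135569937 to 135573049, minus strand), the eosinophil attractant eotaxin-2, was the scarcest by count in Sirt5-/- livers. It was at 1.19, 0.50 and 0.131 CPM in the Sirt5+/+ livers, the last value from 1 count, and at 0.408, 0.331 and 0.249 CPM in the Sirt5-/- livers. The knockout values lay within the wide range of the controls, and the log2 change was -0.99 ± 0.72 (SE; adjusted p = 0.318, edgeR), or -0.12 without Sirt5+/+ replicate 1. Its receptor *Ccr3* had 7, 3 and 0 counts against 2, 3 and 15 and was not tested.

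*Ccl25* (chromosome 8, 4325210 to 4360020, plus strand), known from thymus and small intestine, had 38, 91 and 33 counts in the Sirt5+/+ livers and 37, 66 and 75 in the Sirt5-/- livers. Its levels were 1.80, 3.25 and 4.32 CPM against 2.16, 1.82 and 2.07 CPM. Only Sirt5+/+ replicate 1 lay below the knockouts, and the log2 change was -0.61 ± 0.41 (SE; adjusted p = 0.279, edgeR). With library totals in place of TMM factors the value was 0.12, so the direction depends on the scaling. *Ccl25* overlaps *Elavl1* on the opposite strand over the first bases of the annotated gene, so reads there may be mixed. Its receptor *Ccr9* had 3, 10 and 1 counts against 8, 21 and 22, too few for the test's filter.

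The mix of the 8 ligands within the libraries differed between genotypes. *Ccl9* supplied 83.3, 77.9 and 55.5% of the 8 ligands' counts in the Sirt5+/+ livers and 45.9, 49.3 and 50.0% in the Sirt5-/- livers. *Ccl6* supplied 10.2, 14.1 and 17.1% against 31.9, 31.7 and 32.2%, and *Ccl5* 1.80, 1.66 and 6.65% against 14.1, 10.8 and 10.5%. None of these 3 shares overlapped between genotypes (exact two-sided permutation test, p = 0.1 each, the smallest possible, among 8 shares on each of 2 scales). *Ccl25* was also lower without overlap, at 1.80, 3.98 and 8.44% against 1.77, 1.45 and 1.57%, though the nearest values differ by little. By TPM its shares overlapped, at 3.5, 8.97 and 14.8% against 4.41, 2.27 and 2.89% (exact permutation test, p = 0.2), while those of *Ccl9*, *Ccl6* and *Ccl5* were separate on that scale too. Shares add up to a whole, so they are not independent of one another. The livers held 2109, 2289 and 391 counts of these ligands against 2085, 4556 and 4763.

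Per length, by TPM, *Ccl9* ranked first of the 9 genes in each Sirt5+/+ liver and took the third place in each Sirt5-/- liver, behind *Ccl5* and *Ccl6*. In Sirt5+/+ replicate 3 the top 3 genes lay close together, at 2.76 TPM for *Ccl9*, 2.72 for *Ccl5* and 2.49 for *Ccl6*. The order at the top in Sirt5-/- livers was *Ccl5*, *Ccl6* and *Ccl9* in replicates 1 and 2 (34.9, 21.7 and 13.4 TPM, then 50.0, 48.8 and 32.6 TPM). In replicate 3 *Ccl6* led, at 60.4 TPM, with *Ccl5* at 58.7 TPM. The ranks rest on the implied lengths described above for *Ccl9*.

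**Figure D4:**
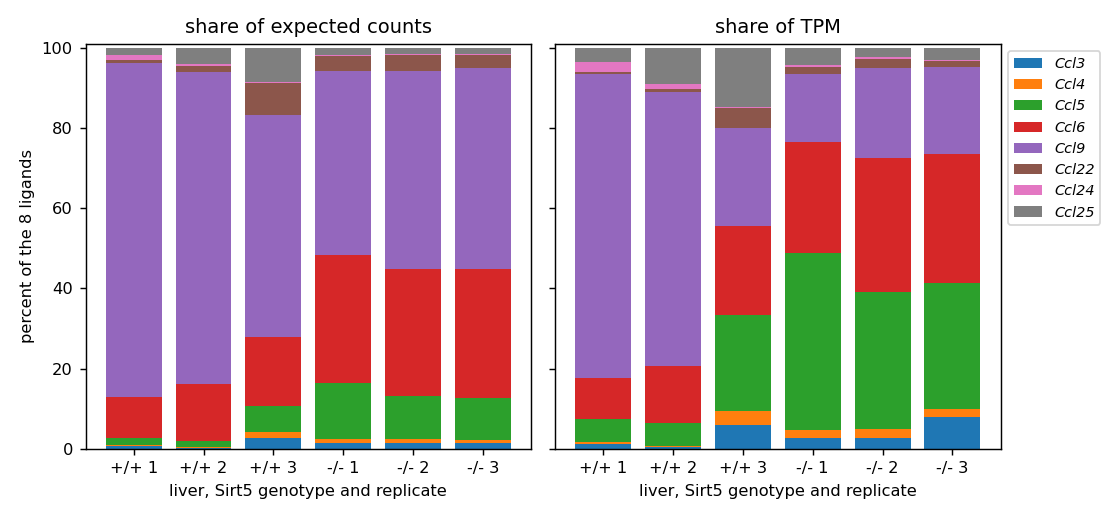
Percent of the summed expected counts (left) and of the summed TPM (right) of the 8 ligands that each ligand supplied, 1 bar per liver. *Ccl9* fills 55.5 to 83.3% of the counts in Sirt5+/+ livers and 45.9 to 50.0% in Sirt5-/- livers, and on the TPM side Sirt5+/+ replicate 3, at 24.5%, looks like the knockouts.

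The rest of the CC chemokine system was read from 31 further genes. Of these, 17 were tested, 9 rose and 1 fell, with a median log2 change of 1.92. Among all genes tested 17.4% were called higher and 17.1% lower. Among inflammatory ligands 5 of 6 tested rose: *Ccl12* by 5.09 ± 0.50, *Ccl8* by 5.32 ± 0.66, *Ccl20* by 4.77 ± 0.58 and *Ccl7* by 3.92 ± 0.61 (log2, SE), and *Ccl2* from 4.60 ± 4.08 to 48.9 ± 11.8 CPM (SD, n = 3; adjusted p of the 5 from 0.00146 to 0.00368, edgeR). These monocyte attractants, and the CCR6 ligand *Ccl20*, had larger log2 changes than any of the 8 ligands above; these differences were not tested. *Ccr2*, the main receptor of CCL2 on monocytes, rose from 12.7 ± 8.81 to 117 ± 15.1 CPM (SD, n = 3).

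Of 4 tested genes that remove, present or trim chemokines 1 rose, the atypical receptor *Ccrl2*, and 1 fell. *Dpp4*, a protease that clips CCL5 and CCL22, fell from 63.3 ± 12.95 to 23.6 ± 4.18 CPM (SD, n = 3), a log2 change of -1.43 ± 0.26 (SE; edgeR adjusted p = 0.00496). The scavenger receptor *Ackr2*, which takes up inflammatory CC ligands, was at 0.892 ± 0.214 against 0.579 ± 0.128 CPM and did not pass (adjusted p = 0.343). *Ackr4*, which takes up CCL25, had 19, 42 and 3 counts against 1, 6 and 4, lower in CPM in each knockout, and did not pass the filter for testing.

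Markers of the cells that make these ligands moved with the genotype. Beside them, 17.4% of all genes tested were called higher and 17.1% lower, and 25.8% were separate and higher. All 8 pan-leukocyte genes rose, such as *Rac2* from 10.3 ± 1.57 to 87.1 ± 8.92 CPM and *Coro1a* from 27.3 ± 9.94 to 213 ± 46.3 CPM (SD, n = 3), and their summed level was 116 to 171 CPM against 694 to 1072 CPM. Of 15 macrophage and Kupffer cell markers 6 rose and 4 fell, with *C1qc* and *C1qa* higher by 3.24 and 3.10 on the log2 scale and *Clec4f*, *Cd5l* and *Marco*, known from Kupffer cells, among those that fell (named after their values were seen). The summed level was 377 to 601 CPM against 1396 to 2623 CPM. Of 11 monocyte markers tested 7 rose, *Cd14* and *Nr4a1* having the smallest p (log2 changes 3.37 and 2.83), with sums of 528 to 1304 against 1093 to 2037 CPM. Of these sums *Fn1* alone held 310 to 1090 CPM in controls and 315 to 432 CPM in knockouts. Of 20 T and NK cell markers 15 were tested. Of these 11 rose and the genotypes were separate in all 15, with *Cd3g* and *Cd2* at 2.84 and 2.25. Those too scarce to test, *Ncr1*, *Gzma*, *Prf1*, *Eomes* and *Tbx21*, overlapped between genotypes. The sums were 10.4 to 15.9 against 50.5 to 55.2 CPM.

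Other cell types differed too, to be read beside 17.4% of all genes tested called higher and 17.1% lower. Of 10 dendritic cell markers 4 rose, with *Fscn1* and *Batf3* at 2.70 and 3.40 (sums 117 to 137 against 180 to 246 CPM), and 2 of 8 B and plasma cell markers, *Cd22* and *Cd79a*, at 2.09 and 1.14 (9.40 to 24.6 against 32.0 to 36.7 CPM). Neutrophil markers were scarce, with 2 of 11 tested, *Csf3r* rising by 2.01 and *S100a9* at 0.03 (5.17 to 6.43 against 8.87 to 13.8 CPM). Eosinophil and basophil markers were scarcer still: *Epx*, *Prg3* and *Ms4a2* had no count in any library and *Siglecf* did not pass (log2 change 1.71, adjusted p = 0.0661, edgeR). In that list the sum was 0.380 to 1.05 against 1.57 to 1.82 CPM. Of 15 hepatocyte markers 13 fell, among them *Hnf4a* and *Cyp2f2* with log2 changes of -1.88 and -2.93 (93910 to 126300 against 19940 to 39230 CPM). Stellate cell and fibroblast markers had 4 of 10 higher and 1 lower, with *Pdgfrb* and *Col1a1* at 2.02 and 2.33 (435 to 699 against 2159 to 2360 CPM). Bile duct cell markers had 3 of 8 higher, with *Krt19* and *Krt7* at 2.71 and 3.62 (90.5 to 402 against 754 to 833 CPM). Of 9 sinusoidal endothelial markers 5 fell and 2 rose, with *Gpr182* and *Oit3* at -2.60 and -3.33. Their sum was nevertheless higher (251 to 269 against 336 to 395 CPM). It was carried by the 2 that rose, *Stab1* (means 50.5 against 149 CPM) and *Fcgr2b* (51.6 against 151 CPM), named after their values were seen. The part of these cells in the chemokine changes was not tested as such, and the next values set each chemokine against marker levels.

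Relative to the mean log2 level of macrophage and Kupffer cell markers in the same liver, *Ccl5*, *Ccl6* and *Ccr1* were higher in Sirt5-/- livers, by 2.46 ± 0.59, 1.64 ± 0.31 and 2.06 ± 0.56 on the log2 scale (SE; limma, adjusted p = 0.0250, 0.0126 and 0.0365). By this measure 9.26% of all genes were called higher. With the replicate block none was called. The call count of 3 fell to 0 without any 1 of the Sirt5-/- replicates, to 1 without Sirt5+/+ replicate 1 or 2, and rose to 6 without Sirt5+/+ replicate 3. The shares of all genes called with the block and without these libraries are not given here, so these counts have no background. The marker mean joins genes that rose with genes that fell.

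Relative to pan-leukocyte genes no member was higher. *Ccl5* differed by 0.01 ± 0.44 and *Ccr1* by -0.40 ± 0.37 (log2, SE; limma, adjusted p = 0.983 and 0.336). *Ccl6* was at -0.81 ± 0.44, *Ccl4* at -1.05 ± 0.47 and *Ccl3* at -1.23 ± 0.56 (adjusted p from 0.0592 to 0.111). *Ccl9*, *Ccl22*, *Ccl24* and *Ccl25* were lower, at -2.60, -1.34, -3.21 and -3.33 (adjusted p from 0.000141 to 0.0232), on a scale where 85.0% of all genes were called lower. With T and NK cell markers or monocyte markers as the reference, *Ccl9*, *Ccl24* and *Ccl25* were the members called, all lower, where 76.7 and 71.7% of all genes were.

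**Figure D5:**
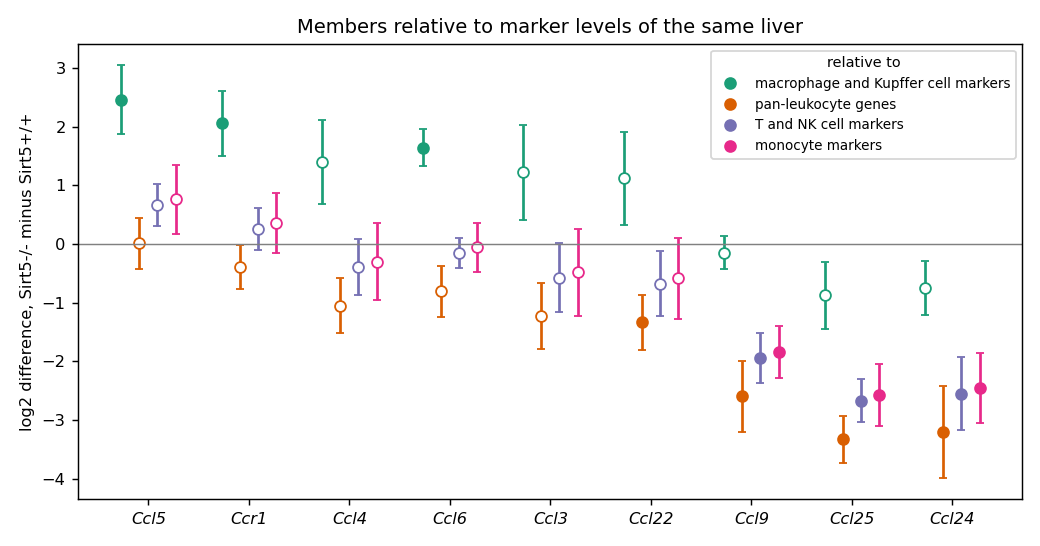
Difference between genotypes in each gene's log2 CPM minus the mean log2 CPM of 4 marker lists in the same liver (points, with SE as bars; filled where the limma adjusted p is under 0.05). *Ccl5*, *Ccr1* and *Ccl6* are above 0 against macrophage markers, within 1 of 0 against the other 3 lists, and *Ccl9*, *Ccl25* and *Ccl24* are lowest against every list.

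Signals known to act on these genes were described with 2 further lists, beside 17.4% of all genes tested called higher and 17.1% lower. NF-kB response genes, which share an inducer with *Ccl3*, *Ccl4*, *Ccl5* and *Ccl22*, had 11 of 15 tested members called higher and none called lower, with a median log2 change of 1.61. Without overlap 12 were higher and 1 lower, against 25.8 and 24.0% of all genes tested. The lower gene was *Nfkbia*, at 48.2 ± 3.53 against 39.7 ± 3.91 CPM (SD, n = 3; adjusted p = 0.359, edgeR). *Vcam1* rose from 14.1 ± 4.00 to 77.5 ± 2.57 CPM, *Icam1* from 20.3 ± 4.73 to 86.6 ± 9.49 CPM and *Il1b* from 0.944 ± 0.296 to 24.1 ± 16.7 CPM (SD, n = 3). IL-4 response genes, the type 2 programme to which *Ccl22* and *Ccl24* belong in macrophages, had 5 of 10 tested members higher and 2 lower, with a median of 1.31. *Mgl2*, *Mrc1* and *Egr2* rose by 3.61, 2.11 and 2.98 on the log2 scale, while 2 fell, *Arg1* and *Cish*, both picked out with their values known, and *Arg1* is also the urea cycle enzyme of hepatocytes.

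The genes whose log2 CPM followed each member most closely over the 6 livers were found among 12155 genes. They were *Vstm5* and *Tfap2e* for *Ccl5*, *Evl* for *Ccr1*, *Ehd2* and *Gas6* for *Ccl6*, *Relb* and *Hotairm1* for *Ccl4*, and *Sp3os* and *Pafah1b3* for *Ccl3*. For *Ccl22* they were *Ccdc134* and *Slc43a3*, for *Ccl9* *Hps1* and *Smarca4*, for *Ccl24* *Lama1* and *Brf2*, and for *Ccl25* *Onecut2* and *Mtm1*. Pearson r ran from 0.992 to 0.999 with n = 6 libraries, which share the genotype difference and the scaling, and the largest of 12155 values is high in any case.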

How the data were processed

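Total RNA of 6 mouse livers was sequenced, and 1 table of all genes was used. HISAT2 2.1.0, RSEM 1.3.1 and DESeq2 1.24.0 are named in the submitters' processing notes, with no role or option, and the genome build and strand setting are not given in the sources used here. The authors deposited expected counts (reads estimated for each gene, unscaled) and TPM (scaled by length and library), per the file headers. Their log2 fold changes and p-values, deposited in the same table, served only as an alternative. Gene IDs and names of all 55536 entries match GENCODE M21, so coordinates are on GRCm38.

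Expected counts were rounded, filtered with filterByExpr (minimum count 10, total 15), scaled with TMM factors (0.396 to 1.68) and tested with the edgeR 4.0.16 quasi-likelihood test (two-sided, genotype only, Benjamini-Hochberg over 14799 genes, threshold 0.05). SE is the log2 fold change over the square root of F. Marker-relative values used limma 3.58.1 on log2 CPM (prior count 2). The edgeR steps were tested on simulated data. Alternatives were the replicate block, other scalings, filters and tools (DESeq2 1.42.0, limma-voom), a threshold of 0.01, leaving out libraries, removing mitochondrial genes, the authors' calls and, added later, a transcript length offset.

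The members, lists and tests were chosen with earlier results of these data known. Named besides the members are the receptors and scavengers of their ligands, *Ccl17*, *Dpp4*, up to 6 more called CC genes, 3 called genes of each response list, 2 genes with the smallest p of each marker list, and the 2 genes most like each member (mean of at least 1 CPM). A few items that this rule names are not reported here. Promoters are RefSeq's (GRCm38.p6) and held 6 of the 9 members. The floors cover counting error only, while each SE also holds the spread among the libraries.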

Additional observations from a re-analysis of the deposited data

How the results depend on the processing

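The count of members called higher was 3, and 6 with library totals, with limma-voom and without both libraries richest in mitochondrial reads, and it ran from 3 to 6 when single libraries were left out. Of 14799 genes tested, 2575 were called higher in the reported fit, 2438 with library totals and 2967 with limma-voom. Without the 2 libraries richest in mitochondrial reads, 3904 of 15527 were. No member was called lower in any setting. The other CC genes called lower were 1 in the reported fit, 0 with library totals, 2 with no filter, without the 2 libraries richest in mitochondrial reads and in the authors' deposited table, and 1 to 3 when single libraries were left out (3 without Sirt5+/+ replicate 3, 2 without Sirt5-/- replicate 1). All genes called were 5100, against 2763 with library totals, 2596 at a threshold of 0.01 and 2531 to 7647 when single libraries were left out (2677 without Sirt5-/- replicate 2, 2531 without Sirt5-/- replicate 3, 7647 without Sirt5+/+ replicate 3). Library totals moved the median log2 change of all genes from -0.08 to 0.60 and the share of calls that were higher from 50.5 to 88.2%. *Ccl9* changed sign without Sirt5+/+ replicate 3 (-0.21, with a range up to 0.44 over the libraries left out), without the 2 libraries richest in mitochondrial reads (-0.15) and with the length offset (-0.99), and *Ccl25* with library totals (0.12); the cause was not tested.

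Members called relative to macrophage markers numbered 3, and 0 to 6 when single libraries were left out, where the shares of all genes called are not given here. The values showed no pairing by replicate number. Correlations of deviations between same-numbered libraries were -0.19, 0.12 and -0.20, and no library correlated best with its own number. With 3 libraries in a group these correlations cannot exclude a pairing. With the replicate block 3 members were called higher in the edgeR fit, 3643 genes in all, and 0 members relative to macrophage markers. *Ccl3*, *Ccl4* and *Ccl24* did not pass the strict filter. Control libraries held 1 to 25 counts of *Ccl3*, *Ccl4* and *Ccl24*; the part of depth in their calls was not tested.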
